A study of Mus musculus with 6 samples.

Results

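The transcription factor p53 (gene Trp53) and 9 genes that it switches on, Mdm2, Trp53inp1, Ccng1, Bax, Phlda3, Sesn1, Zmat3, Eda2r and Gadd45a, were followed by RNAseq through mammary tumors of NeuT/ATTAC mice. These 10 genes, of 54532 gene IDs in the deposited data, were listed by name as the factor and well-known targets, and not by a threshold on the measurements. NeuT/ATTAC mice carry an Erbb2 transgene under the MMTV promoter, which acts in mammary epithelium, together with the FAT-ATTAC transgene on the FVB strain. In both groups AP20187, given i.p. at 0.4 mg/kg from 6 weeks of age, was used to induce mammary fibrosis. From 8 weeks of age the mice then received 100 μg of an isotype-specific IgG (3 tumors) or of an anti-PD-1 mAb (3 tumors). Every mouse thus carried both transgenes and received AP20187, and the labels name no engineered Trp53 allele.

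p53 is held at a low level by Mdm2, a ubiquitin ligase that p53 itself induces, so that the 2 form a feedback loop. When DNA damage or an oncogene frees p53 from Mdm2, it binds pairs of short half-sites near its target genes and raises their transcription. Its targets arrest the cell cycle, start apoptosis, repair DNA or adjust metabolism. The activity of p53 is set mostly through its protein, which RNA does not measure.

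Between 21075641 and 23852764 reads per tumor were recovered from the deposited FPKM (fragments of a gene, scaled to its exon length and to library size), and the values of the 10 genes rested on 47 to 5493 reads each. The epithelial markers Epcam, Krt8 and Krt18 were abundant and Erbb2 was expressed in every tumor, at an FPKM of 20.3 to 31.4. None of 7 T cell markers reached a mean FPKM of 0.5, whereas all 7 macrophage markers did. IgG replicate 1 lay nearer to the anti-PD-1 tumors than to the other IgG tumors. Its log2 values had a Pearson r across genes of 0.951 to 0.958 with the anti-PD-1 tumors. With IgG replicates 2 and 3 it was 0.937 and 0.935. IgG replicates 2 and 3 correlated less with each other (0.928) than either did with IgG replicate 1. For the 10 genes and each wider p53 list, the counts at an unadjusted p under 0.05 are given below with and without IgG replicate 1. In tumor RNA, a change in the share of a cell type cannot be told apart from a change in the RNA per cell.

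Promoter sequences show where the p53 half-site occurs at these genes. RefSeq windows on GRCm38.p6, from 250 bases before to 50 bases after the start of transcription, were found for 8 of the 10 genes, with 9 windows in all, and were not used for Trp53inp1 and Zmat3. The 10-base p53 half-site consensus, which reads alike on both strands and was the only motif searched, occurred in 6 of the 9 windows, those of Trp53, Mdm2, Ccng1, Bax, Gadd45a and 1 of 2 starts of Sesn1. Across all 32851 RefSeq windows, 8.36% held a match. The bases before the start of Trp53 (chr11:69580109-69580358, plus strand) and Bax (chr7:45466899-45467148, minus strand), the factor and a target whose groups did not overlap, are printed 5′ to 3′ with the matching half-site in capitals.
Trp53: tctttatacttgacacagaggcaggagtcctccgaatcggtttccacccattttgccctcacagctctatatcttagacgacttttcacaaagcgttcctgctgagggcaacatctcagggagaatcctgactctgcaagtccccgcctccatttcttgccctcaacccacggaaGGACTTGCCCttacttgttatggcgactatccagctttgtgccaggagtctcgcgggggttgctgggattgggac
Bax: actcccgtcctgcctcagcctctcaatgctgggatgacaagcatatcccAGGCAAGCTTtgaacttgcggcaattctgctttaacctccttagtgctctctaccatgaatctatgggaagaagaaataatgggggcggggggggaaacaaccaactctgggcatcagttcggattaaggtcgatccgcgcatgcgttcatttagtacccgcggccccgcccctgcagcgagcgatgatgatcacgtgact

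Shorter stretches are shown for the other targets with a match, so that the half-sites can be compared. They are Mdm2 (chr10:117710910-117710969, minus strand), Ccng1 (chr11:40755437-40755496, minus strand), Sesn1 (chr10:41887241-41887300, plus strand) and Gadd45a (chr6:67037413-67037472, minus strand). Cdkn1a (chr17:29090892-29090951, plus strand), the best known p53 target, is added because the window of 1 of its 2 starts held a pair of half-sites, while the other held none.
Mdm2: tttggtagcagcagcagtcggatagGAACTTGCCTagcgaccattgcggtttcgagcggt
Ccng1: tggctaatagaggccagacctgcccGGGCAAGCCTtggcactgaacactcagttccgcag
Sesn1: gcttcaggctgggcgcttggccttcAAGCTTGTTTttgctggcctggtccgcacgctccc
Gadd45a: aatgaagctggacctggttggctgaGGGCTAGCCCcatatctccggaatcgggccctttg
Cdkn1a: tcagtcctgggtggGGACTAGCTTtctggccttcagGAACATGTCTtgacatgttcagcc

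Counted from the start of transcription, the match began at position -75 in Trp53, -186 in Mdm2, -185 in Ccng1, -201 in Bax, -173 in Sesn1 and -40 in Gadd45a. No match was found in the windows of Phlda3 and Eda2r, which says only that these letters were not in these windows. A match describes the sequence and does not show that p53 was bound in these tumors.

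Trp53 RNA was higher in every anti-PD-1 tumor than in any IgG tumor. Trp53 (ENSMUSG00000059552, chromosome 11 from 69580359 to 69591873 on GRCm38) had an FPKM of 22.0, 13.0 and 16.4 in the IgG tumors (replicates 1 to 3, an order kept below) and of 24.2, 28.6 and 24.2 in the anti-PD-1 tumors. The means were 17.1 ± 4.51 (SD, n = 3) and 25.6 ± 2.53 (SD, n = 3), and IgG replicate 1 lay closest to the anti-PD-1 tumors. On the log2(FPKM + 1) scale the fold change, anti-PD-1 over IgG, was 0.58 with a standard error of 0.21 (limma p = 0.0257, and exact permutation p = 0.1, the smallest that 3 tumors against 3 allow). Adjusted over the 15069 genes tested, the limma p was 0.370 and did not pass the threshold of 0.05.

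Mdm2, the inhibitor and target of p53, had a higher mean in anti-PD-1 tumors with overlapping groups. Its FPKM was 14.3, 11.9 and 11.02 in the IgG tumors and 12.2, 17.2 and 19.4 in the anti-PD-1 tumors. The log2 fold change was 0.35 with a standard error of 0.21 (limma adjusted p = 0.517), and anti-PD-1 replicate 1 lay within the IgG range. The value was 0.53 when anti-PD-1 replicate 1 and 0.23 when anti-PD-1 replicate 3 was left out. Mdm4, the partner of Mdm2 that blocks p53 without degrading it, had an FPKM of 12.8, 12.1 and 12.9 in IgG and of 8.25, 17.9 and 19.97 in anti-PD-1 tumors. The IgG tumors lay close together for Mdm4, whereas anti-PD-1 replicate 1 was the lowest and replicate 3 the highest of all 6. Its log2 fold change of 0.19 (standard error 0.31) turned to -0.029 without anti-PD-1 replicate 3 and was 0.55 when anti-PD-1 replicate 1 was left out. Cdkn2a, whose Arf product inhibits Mdm2, ranged from an FPKM of 2.17 in IgG replicate 3 to 28.5 in anti-PD-1 replicate 3, with the other 4 tumors between 9.74 and 12.7. Its log2 fold change of 1.11 (standard error 0.59, limma adjusted p = 0.474) was 0.47 when IgG replicate 3, 0.71 when anti-PD-1 replicate 3 and 1.52 when IgG replicate 1 was left out. The reads of Arf and of the cell cycle inhibitor p16 from the same gene were not separated.

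**Figure D1:**
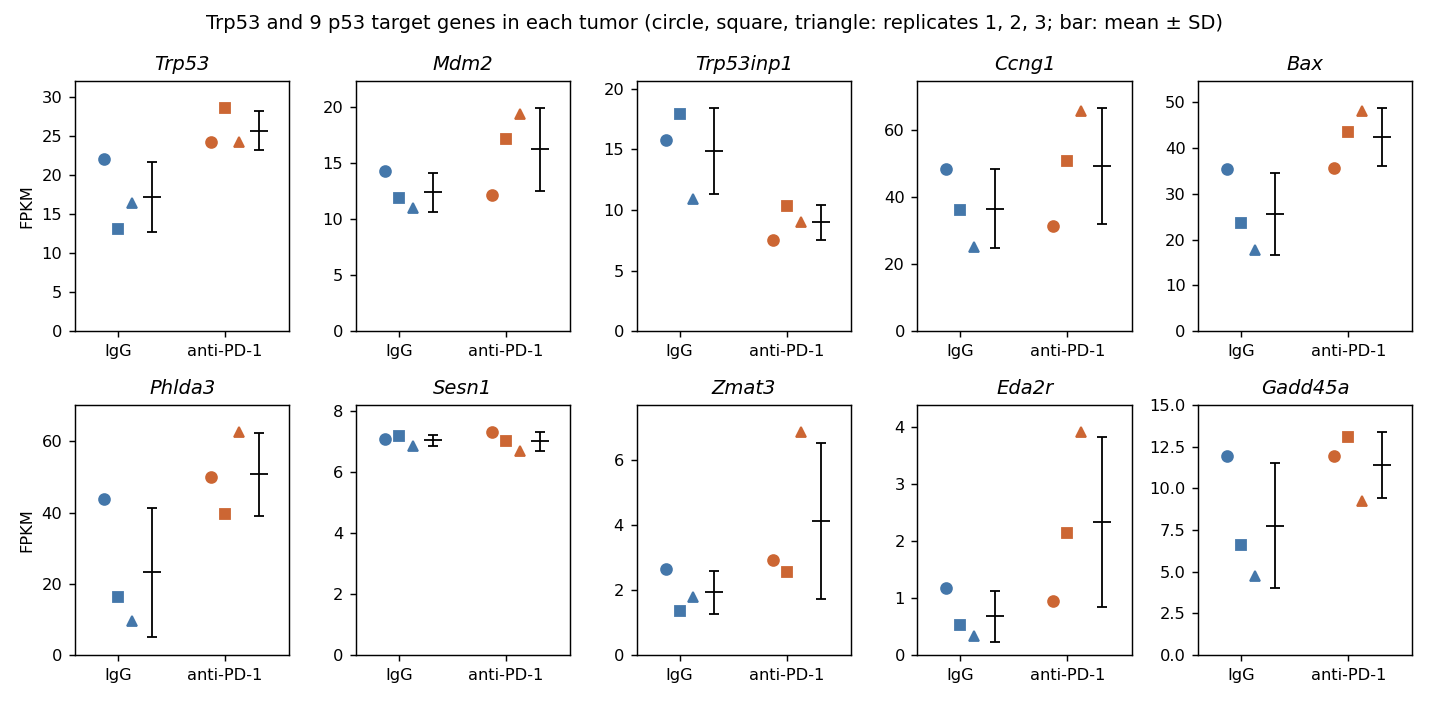
Deposited FPKM (vertical axis, from 0) of Trp53 and 9 p53 targets in 3 IgG (blue) and 3 anti-PD-1 (orange) tumors, with the mean ± SD of each group beside the points. Trp53 and Bax are higher and Trp53inp1 is lower in every anti-PD-1 tumor than in any IgG tumor, the groups overlap for the other 7 genes, and Sesn1 is level across the 6 tumors.

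The death gene Bax was also higher in every anti-PD-1 tumor than in any IgG tumor. Bax (ENSMUSG00000003873, chromosome 7 from 45461697 to 45466898), whose protein opens the outer mitochondrial membrane in apoptosis, had an FPKM of 35.4, 23.7 and 17.8 in the IgG tumors and of 35.6, 43.6 and 48.1 in the anti-PD-1 tumors. The means were 25.6 ± 8.94 (SD, n = 3) and 42.4 ± 6.31 (SD, n = 3), a ratio of 1.66. The groups were separated only by the small gap between IgG replicate 1 and anti-PD-1 replicate 1, and under quantile normalization they overlapped. Its log2 fold change was 0.75 with a standard error of 0.26 (limma p = 0.0224, adjusted p = 0.365, and exact permutation p = 0.1).

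Phlda3, which competes with AKT for membrane lipids and so restrains this survival kinase, showed the largest log2 fold change of the 10 genes on the log2(FPKM + 1) scale, although Eda2r exceeded it with 0.1 added to FPKM (1.6002 against 1.3937) and with voom on recovered reads (1.76 against 1.41). Its FPKM was 43.7, 16.4 and 9.51 in the IgG tumors and 49.9, 39.6 and 62.8 in the anti-PD-1 tumors (means 23.2 ± 18.1 and 50.7 ± 11.6, SD, n = 3). IgG replicate 1 lay among the anti-PD-1 tumors, while IgG replicates 2 and 3 lay below all of them. Its log2 fold change was 1.34 with a standard error of 0.49 (limma p = 0.0292, adjusted p = 0.373, and exact permutation p = 0.2). It was 1.91 without IgG replicate 1 (limma adjusted p = 0.0913) and 0.87 without IgG replicate 3 (limma adjusted p = 0.519).

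Eda2r (Xedar), a receptor of the TNF receptor family, was the least abundant of the genes and varied the most. Its FPKM was 1.18, 0.523 and 0.327 in the IgG tumors, from 153, 74 and 47 reads, and 0.948, 2.13 and 3.92 in the anti-PD-1 tumors, from 143, 305 and 549 reads. The highest tumor was 12.0 times the lowest, and the groups overlapped because anti-PD-1 replicate 1 lay below IgG replicate 1. The log2 fold change of FPKM + 1 was 0.92 with a standard error of 0.37 (limma p = 0.0396, adjusted p = 0.393, and exact permutation p = 0.2), a scale that understates changes of genes this low. It was 0.60 without anti-PD-1 replicate 3, and its unadjusted p was above 0.05 in that fit and without IgG replicate 2, IgG replicate 3 or anti-PD-1 replicate 2. Voom on the recovered reads gave a log2 fold change of 1.76.

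Zmat3, an RNA-binding zinc finger protein, had 1 tumor far above the rest. Its FPKM was 2.65, 1.35 and 1.77 in the IgG tumors and 2.93, 2.55 and 6.88 in the anti-PD-1 tumors. Its log2 fold change of 0.74 (standard error 0.34, limma adjusted p = 0.427) came to 0.39 without anti-PD-1 replicate 3.

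The targets linked to growth arrest had higher anti-PD-1 means with a wide spread. Ccng1 (cyclin G1), which recruits a phosphatase to Mdm2, had the highest mean FPKM of the 10 genes over the 6 tumors (43.0, against 37.0 for Phlda3, whose mean was the higher of the 2 in the anti-PD-1 group), with values of 48.5, 36.2 and 24.99 in the IgG tumors and of 31.3, 50.9 and 65.8 in the anti-PD-1 tumors. Anti-PD-1 replicate 1 lay below IgG replicates 1 and 2, and the log2 fold change was 0.41 with a standard error of 0.33 (limma adjusted p = 0.627). It was 0.17 when IgG replicate 3 and 0.19 when anti-PD-1 replicate 3 was left out, but 0.64 when IgG replicate 1 and 0.70 when anti-PD-1 replicate 1 was left out. Gadd45a, a stress sensor that binds PCNA and p21, had an FPKM of 12.0, 6.59 and 4.74 in IgG and of 12.0, 13.1 and 9.21 in anti-PD-1 tumors. Its log2 fold change was 0.58 with a standard error of 0.31 (limma adjusted p = 0.474), and it was 0.32 when IgG replicate 3 was left out and 0.90 when IgG replicate 1 was. E230016M11Rik lies over Gadd45a on the opposite strand, and as no strand setting is given in the sources used here, the 2 may share reads (its own FPKM did not exceed 0.553).

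Cdkn1a, which encodes the cyclin-dependent kinase inhibitor p21, was not one of the 10 genes but spanned a wider range than any of them. Its FPKM was 40.2, 6.84 and 5.94 in the IgG tumors and 36.4, 60.3 and 149 in the anti-PD-1 tumors. IgG replicate 1 again lay above an anti-PD-1 tumor, while the other IgG tumors lay far below. Between the groups its log2 fold change was 2.42 with a standard error of 0.77 (limma p = 0.0152, adjusted p = 0.355, and exact permutation p = 0.2), and it was 3.25 without IgG replicate 1 (limma adjusted p = 0.09997). It was 2.05 when IgG replicate 2, 1.97 when IgG replicate 3 and 1.88 when anti-PD-1 replicate 3 was left out, each with an unadjusted p above 0.05. AC167363.2 lies over Cdkn1a on the opposite strand with an FPKM of up to 3.06, so that these genes may share reads too.

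Sesn1 and Trp53inp1 departed from the other targets. Sesn1, a sestrin that restrains mTORC1 under stress, had an FPKM of 7.09, 7.18 and 6.85 in the IgG tumors and of 7.33, 7.01 and 6.70 in the anti-PD-1 tumors. The highest tumor was 1.09 times the lowest, the group means were 7.04 ± 0.168 and 7.01 ± 0.313 (SD, n = 3), and the log2 fold change was -0.00053 with a standard error of 0.14 (limma adjusted p = 0.999). Its sign changed between settings, but the leave-one-out values stayed between -0.030 and 0.034.

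Trp53inp1, a cofactor of p53 in cell death that also takes part in autophagy, was lower in every anti-PD-1 tumor than in any IgG tumor. Trp53inp1 (ENSMUSG00000028211, chromosome 4 from 11156431 to 11174379) had an FPKM of 15.7, 17.9 and 10.9 in the IgG tumors and of 7.54, 10.4 and 8.998 in the anti-PD-1 tumors (means 14.8 ± 3.56 and 8.96 ± 1.41, SD, n = 3). The log2 fold change was -0.65 with a standard error of 0.22 (limma p = 0.0194, adjusted p = 0.355, and exact permutation p = 0.1).

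Most other genes of chromosome 4 shared the direction of the Trp53inp1 difference between the groups. Of the 926 genes of that chromosome tested, 83.6% had a negative log2 fold change, with a median of -0.40. With each gene set against its own average, the chromosome 4 median was -0.09, 0.35 and 0.31 in the IgG and -0.16, -0.22 and -0.24 in the anti-PD-1 tumors. Chromosome 9 had a median of -0.36 over 798 genes, 82.3% of them negative. On the same scale Trp53inp1 was 0.43, 0.60 and -0.06 in the IgG and -0.53, -0.13 and -0.31 in the anti-PD-1 tumors, with the sign of the chromosome 4 median in 4 of the 6 tumors. The part of the chromosome in the result was not tested. Among the p53 pathway genes tested, 14 lay on chromosomes 4 or 9, and 10 of them had negative log2 fold changes, against 17 of 61 on the other chromosomes. A share of 10 in 14 was no higher than that of all genes of either chromosome. At an unadjusted p under 0.05, 3 of the 14 (Trp53inp1, Rpl11 and Atm) and 0 of the 61 were lower, where 6.05% of all genes were. The share of all genes of these 2 chromosomes that was lower at this limit was not counted.

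**Figure D2:**
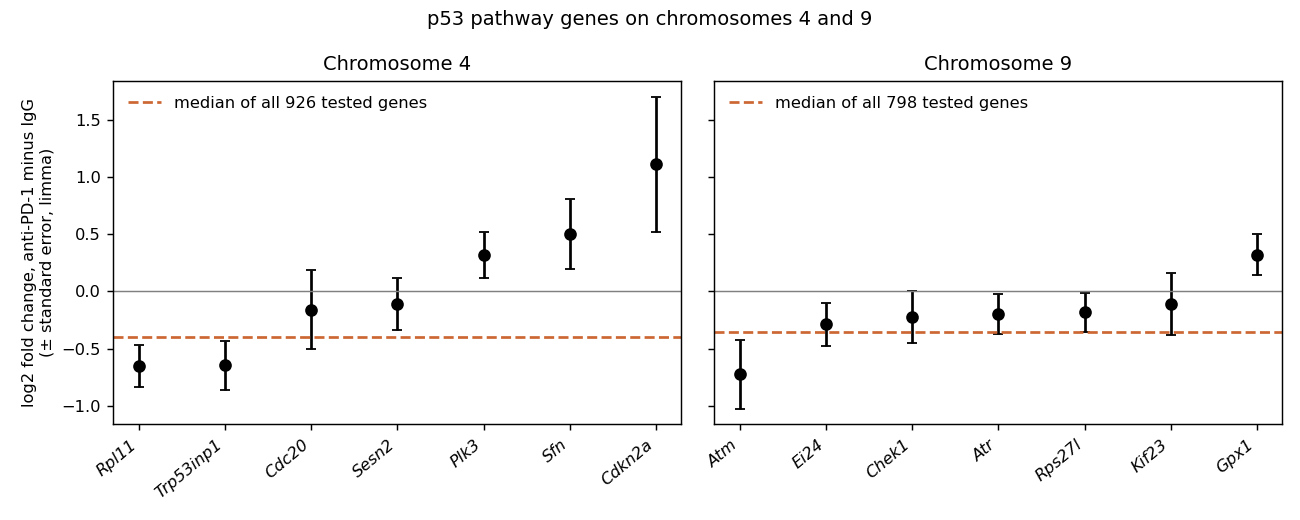
Limma log2 fold change (anti-PD-1 minus IgG, ± standard error) of the tested p53 pathway genes on chromosomes 4 and 9, with the median of all tested genes of the chromosome as a dashed line. Trp53inp1 and Rpl11 lie below the chromosome 4 median of -0.40 and Atm below the chromosome 9 median of -0.36, while Cdkn2a lies above zero at 1.11.

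Of the 10 genes, 8 had a higher and 2 a lower mean in anti-PD-1 tumors, and the median log2 fold change was 0.58, against 0.01 over all genes tested. None of the 10 passed an adjusted p of 0.05 with limma, nor did any of all genes tested (0.0%), and voom on recovered reads called none of the 10 either. At an unadjusted p under 0.05, 4 were higher (Trp53, Bax, Phlda3 and Eda2r), where 6.22% of all genes were, and 1 was lower (Trp53inp1), where 6.05% were; 12.3% of all genes met this limit in either direction. With voom, 5 were higher and 1 lower at this limit, where 6.00% and 6.71% of all genes were. The groups did not overlap in the higher direction for 2 genes (Trp53 and Bax) against 9.3% of all genes, and in the lower direction for 1 (Trp53inp1) against 8.75%.

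These counts moved with the tumors used. Without IgG replicate 1, 6 of the 10 genes were higher at an unadjusted p under 0.05, where 8.41% of all genes were, and 7 did not overlap in the higher direction, where 17.7% of all genes did not. Without IgG replicate 2, or without IgG replicate 3, none of the 10 was higher at this limit, where 3.31% and 4.99% of all genes were. The count was 2 without anti-PD-1 replicate 2, where 5.46% of all genes were higher, and 1 without anti-PD-1 replicate 3, where 4.38% were. Eda2r was not called under the replicate block or with no filter on low FPKM, which left 3, where 6.09% and 4.19% of all genes were higher. The lower call of Trp53inp1 was lost without IgG replicate 1, IgG replicate 2 or anti-PD-1 replicate 1, where 9.41%, 3.05% and 5.21% of all genes were lower. The leave-one-out log2 fold changes of Trp53 ran from 0.41 to 0.77 and those of Bax from 0.53 to 1.00.

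**Figure D3:**
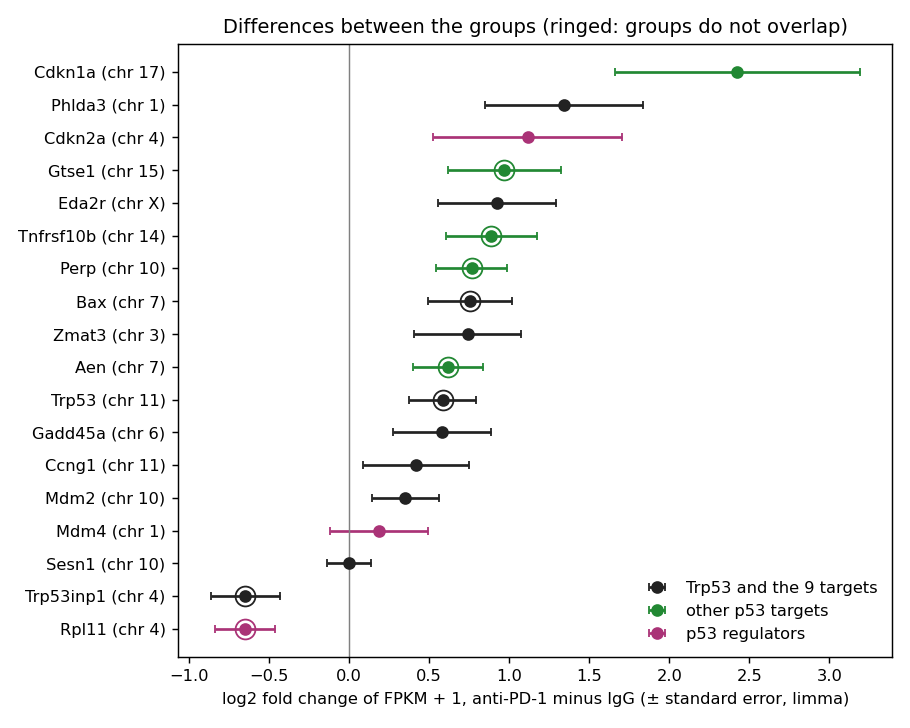
Limma log2 fold change of FPKM + 1 (horizontal axis, anti-PD-1 minus IgG, ± standard error) for Trp53 and the 9 targets (black) and, of the other lists, 5 p53 targets (green) and 3 p53 regulators (purple), with a ring where the groups do not overlap. The values of these 18 genes run from -0.65 for Rpl11 and Trp53inp1 to 2.42 for Cdkn1a, and none passed an adjusted p of 0.05.

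Tumor by tumor, the median of the 9 targets was graded, though not every target followed it. The median of their log2 values, each set against its own average, was 0.13, -0.41 and -0.69 in the IgG tumors and 0.06, 0.31 and 0.56 in the anti-PD-1 tumors. IgG replicate 3 was the lowest tumor for 6 of the 9 targets and anti-PD-1 replicate 3 the highest for 6. IgG replicate 1 lay above both other IgG tumors for 7 targets and above at least 1 anti-PD-1 tumor for 8. IgG replicates 2 and 3 lay below every anti-PD-1 tumor for 6 of the 9, where they did so for 17.7% of all genes. For the other rank counts the share of all genes was not counted.

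The summed level of epithelial markers, made up mostly of Epcam, Krt8 and Krt18, had the same order of tumors. The summed FPKM of 6 epithelial markers, none at 0 in any tumor, was 2652, 2335 and 1914 in the IgG tumors and 2521, 2693 and 3648 in the anti-PD-1 tumors. The highest sum was 1.91 times the lowest, against 6.60 times for Phlda3 and 1.09 times for Sesn1. Krt8 and Krt18 lie on chromosome 15. With each gene set against its own average, the chromosome 15 median was 0.33 in anti-PD-1 replicate 3 and at most -0.01 in the other tumors. Epcam, on chromosome 17, was highest in anti-PD-1 replicate 2. The part of the chromosome in the order of the sums was not tested. Of the 6 epithelial markers, 4 had a higher mean in anti-PD-1 tumors. Among them Epcam (0.43) and Erbb2 (0.34) were higher in every anti-PD-1 tumor than in any IgG tumor, as 9.3% of all genes were. Their limma adjusted p was 0.462 and 0.424. Krt19 and Cdh1 went the other way. Krt19 had a log2 fold change of -2.03 (standard error 0.85) and was lower without overlap, as 8.75% of all genes were. Its FPKM was 77.9 in IgG replicate 2 and at most 7.84 in the other tumors. Cdh1 had a log2 fold change of -0.34 (standard error 0.24).

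Of the markers of other cells none passed an adjusted p of 0.05, and 1 macrophage marker (Cd68, higher) and 1 myoepithelial marker (Krt17, lower) of 7 and 4 tested had an unadjusted p under 0.05 (6.22% and 6.05% of all genes). The log2 fold changes of the 7 macrophage markers were all above 0 but ran from 0.0055 for Adgre1 and 0.11 for Csf1r to 0.76 for Cd68. Cd68, 1.74 times as high after anti-PD-1 (limma adjusted p = 0.344), was the only 1 of the 7 without overlap. The mean FPKM of Cd14 was lower after anti-PD-1 (170) than after IgG (178). The summed FPKM of the 7 spanned 179 to 550 across the IgG group and 385 to 439 across the anti-PD-1 group. The summed FPKM of 5 myoepithelial markers, none at 0 in any tumor, was lower in every anti-PD-1 tumor (5.07 to 5.77) than in any IgG tumor (7.10 to 12.2). All 4 endothelial markers had a lower and all 3 tested neutrophil markers a higher mean log2 value in anti-PD-1 tumors, and the summed FPKM of each overlapped between the groups (12.5 to 18.1 against 7.87 to 15.2, and 2.85 to 12.3 against 5.97 to 25.9). The 6 fibroblast markers, none at 0 in any tumor, summed to 235, 76.5 and 107 in the IgG and to 338, 90.6 and 201 in the anti-PD-1 tumors. Among them 3, the collagens Col1a1, Col1a2 and Col3a1, had log2 fold changes of 0.70 to 0.77 (limma adjusted p 0.588 to 0.666). The other 3, Pdgfra, Dcn and Lum, had negative ones, down to -0.24. Skeletal muscle markers summed to between 62.6 and 116 in IgG replicate 2 and anti-PD-1 replicates 1 and 2 and to at most 3.80 in the other tumors. The part of these cells and of epithelial content in the target levels was not tested.

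**Figure D4:**
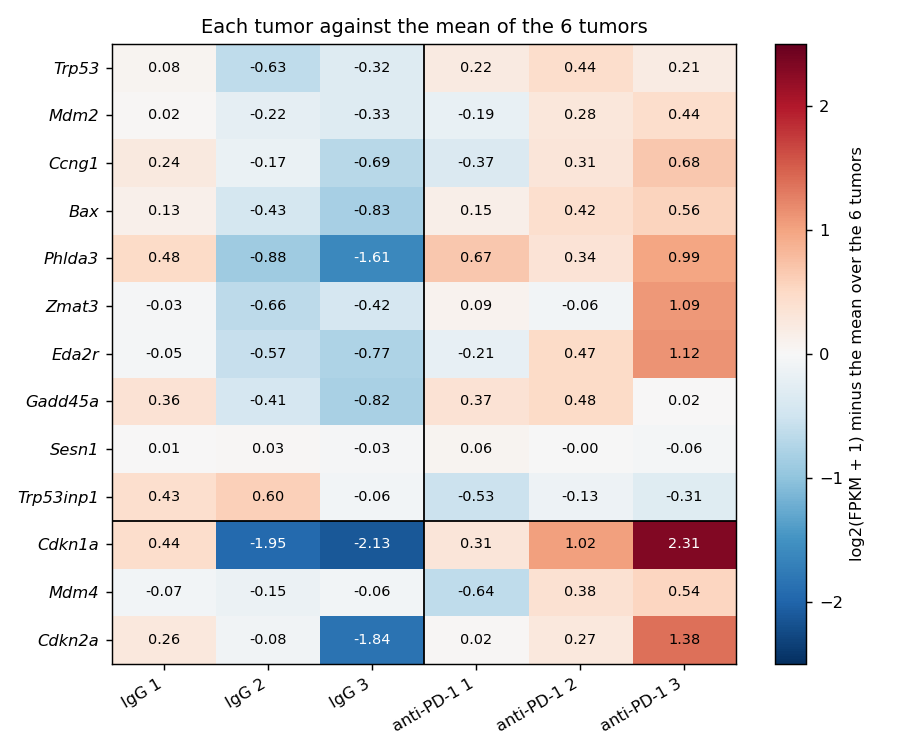
Log2(FPKM + 1) of each gene minus its mean over the 6 tumors (color and printed value; columns are tumors, rows are Trp53, the 9 targets and, under the line, 3 other genes of the pathway). Most targets are lowest in IgG replicates 2 and 3 and highest in anti-PD-1 replicate 3, IgG replicate 1 lies above both other IgG tumors for 7 of the 9, and Cdkn1a spans -2.13 to 2.31.

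A wider list of 36 other p53 targets, of which 34 were expressed highly enough to test, included 26 whose anti-PD-1 mean was higher and 8 whose mean was lower (median log2 fold change 0.30). None passed an adjusted p of 0.05. At an unadjusted p under 0.05, 5 were higher (6.22% of all genes) and none was lower (6.05%), and the 5 were Cdkn1a, Gtse1, Perp, Aen and Tnfrsf10b. Without IgG replicates 1, 2 or 3 in turn the count of higher genes was 9, 1 and 2, where 8.41%, 3.31% and 4.99% of all genes were higher. Without anti-PD-1 replicates 1, 2 or 3 in turn it was 8, 4 and 3, where 5.78%, 5.46% and 4.38% of all genes were. There was 1 lower gene without IgG replicate 1 and without IgG replicate 3, where 9.41% and 5.03% of all genes were lower. Of the 5 genes, Perp alone kept an unadjusted p under 0.05 with each tumor left out. All 6 cell cycle targets had a higher mean, among them Gtse1, a microtubule-bound protein that returns p53 to the cytoplasm, at 0.97 (standard error 0.35). Its FPKM was 5.90, 2.36 and 6.19 in the IgG and 6.98, 9.56 and 13.7 in the anti-PD-1 tumors, without overlap, and its log2 fold change was 0.61 when IgG replicate 2 was left out. Gtse1 lies on chromosome 15, where the median log2 fold change was 0.17 over 630 tested genes, 28.9% of them negative. The part of the chromosome in its value was not tested.

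Of 11 cell death targets, 9 had a higher mean. Perp, a desmosome protein that promotes apoptosis, had an FPKM of 75.3, 66.5 and 94.5 in the IgG and of 118, 116 and 171 in the anti-PD-1 tumors (log2 fold change 0.77, standard error 0.22). The groups of Perp were further apart than those of Bax and did not overlap. Tnfrsf10b, the mouse TRAIL death receptor, had an FPKM of 6.41, 2.97 and 3.08 against 6.62, 7.97 and 10.1 (0.89, standard error 0.28). Aen, an exonuclease of apoptosis, had an FPKM of 4.38, 2.77 and 2.65 against 4.41, 5.47 and 6.58 (0.62, standard error 0.22). In both genes IgG replicate 1 lay just under the lowest anti-PD-1 tumor. The limma adjusted p of these 3 genes was between 0.344 and 0.370. Fas, the death receptor, had a lower mean (-0.67, standard error 0.30), with IgG replicate 2 the highest tumor.

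The median log2 fold change was 0.32 over 5 tested metabolism and stress targets and 0.09 over 6 DNA repair targets, against 0.37 over the cell death targets, and differences between these groups of targets were not tested. Gpx1, a peroxidase that removes hydrogen peroxide, had a log2 fold change of 0.32 (standard error 0.18) and groups that did not overlap. Pcna, the sliding clamp of DNA replication, had a log2 fold change of 0.02. Gls2 and Gdf15 did not reach the mean FPKM of 0.5 needed for testing, nor did Trp63 and Trp73, the relatives of p53.

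Regulators of p53 showed no shift to higher values. Of 18 regulators 16 were tested, 2 with a higher and 14 with a lower anti-PD-1 mean (median log2 fold change -0.10), and none passed an adjusted p of 0.05. Only Rpl11 and Atm were lower at an unadjusted p under 0.05 (6.05% of all genes) and none was higher (6.22%). Without IgG replicate 1, 2 regulators were lower and 1 was higher, where 9.41% of all genes were lower and 8.41% higher. The count of lower regulators was 1 without IgG replicate 2, anti-PD-1 replicate 2 or anti-PD-1 replicate 3, where 3.05%, 3.91% and 3.33% of all genes were lower. Rpl11, a ribosomal protein that binds and inhibits Mdm2, had an FPKM of 172, 233 and 173 in the IgG and of 127, 123 and 113 in the anti-PD-1 tumors, without overlap (-0.65, standard error 0.19, limma adjusted p = 0.344). Rpl5, which binds Mdm2 together with Rpl11, had a log2 fold change of -0.19 with a standard error of 0.24. Ribosomal protein genes have many near-identical pseudogenes, so that the values of both are uncertain. Atm, the kinase that activates p53 after DNA breaks, had an FPKM of 2.17, 3.67 and 5.94 against 2.37, 1.68 and 1.49, with overlapping groups (-0.72, standard error 0.30).

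Cell cycle genes that p53 is known to lower did not have lower means as a group. Of 15 such genes, 12 had a higher and 3 a lower anti-PD-1 mean (median log2 fold change 0.20), and none reached an unadjusted p under 0.05 in either direction, where 12.3% of all genes did. Without IgG replicate 1 the count was again 0 (17.8% of all genes), and it was 1 without anti-PD-1 replicate 3 (7.71%). Log2 fold changes ran from -0.25 for Mki67 to 0.45 for Birc5. Their tumor order differed from that of the targets, with IgG replicate 2 (median -0.50) and anti-PD-1 replicate 3 (-0.38) the lowest.

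The genes closest to Trp53 across the 6 tumors were Capn5, Kptn, Mrps18a, Dnaaf2 and Hps1. Likeness was the root mean square difference of log2(FPKM + 1) after each gene was set against its own mean, and was between 0.0566 and 0.0877 for these 5. Among the targets, Mdm2 (0.264), Bax (0.267) and Gadd45a (0.269) were closest, whereas Phlda3 (0.672) and Trp53inp1 (0.695) were farthest, and Mdm2 ranked 1467 among the tested genes. For comparison, a gene that did not vary at all would differ from Trp53 by 0.365, so that 3 of the 9 targets were closer to Trp53 than a flat gene.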

How the data were processed

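RNAseq of 6 mammary tumor samples (3 IgG, 3 anti-PD-1) was re-analyzed, with groups and replicate numbers from the sample labels. Per the labels and the paper, total RNA was extracted and reads were processed by the authors with FastQC 0.11.9, cutadapt 3.5, Bowtie2 2.4.1, RSEM 1.3.1 and DESeq2 1.36.0 in R 4.1 on mm10. The values deposited by the authors are FPKM, and how they were made from the counts is not given in the sources used here. The paper describes pooled RNA for each group, whereas 3 separate samples per group are given here, each called a tumor in the text. The sample titles give only the group and a replicate number, so that they do not tell 1 tumor from a pool. The labels do not state whether tumors came from separate mice, so that p-values measure the spread between these samples.

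FPKM times the GENCODE M21 exon length, divided by what 1 read was worth in that tumor, gave whole reads, within 0.1 of a whole number, for 97.0% to 97.3% of the values above 0. FPKM were divided by median-of-ratios factors, which lay between 1.00 and 1.01, and log2(FPKM + 1) of the 15069 genes averaging 0.5 FPKM or more was tested with limma 3.58.1 in R 4.3.3 (eBayes with trend, two-sided, Benjamini-Hochberg adjustment). Exact permutation tests compared single genes. Scripts were tested on simulated data. The members and gene lists were chosen with earlier results of these data known. Genes named beyond the 10 were Cdkn1a, Mdm4, Cdkn2a, list genes at an unadjusted p under 0.05 without overlap, list genes below the filter and the 5 genes closest to Trp53. Fas, Atm, Rpl5, Pcna, Gpx1, Mki67 and Birc5 were chosen after their values were seen, and so were the cell type markers named singly. Tables and figures were made with pandas 2.3.3, numpy 2.4.6 and matplotlib 3.10.9 in Python 3.11.15. The alternatives were quantile normalization, no scaling, no filter, a filter at a mean of 2 FPKM, 0.1 added to FPKM, no trend, a replicate block, voom on recovered reads and leaving out each tumor.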

Additional observations from a re-analysis of the deposited data

How the results depend on the processing

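Of 18 genes followed through 14 alternatives, 16 kept their direction in every one, and 0 of 251 pairs of gene and alternative had an adjusted p under 0.05. Sesn1 changed sign, to 0.027 under quantile normalization and within -0.030 to 0.034 when single tumors were left out, and Mdm4 ran from -0.029 to 0.55 in the latter. Eda2r could not be fitted at a mean FPKM of at least 2, and its unadjusted p was above 0.05 under the replicate block (0.0731) and with no filter (0.0608), so that 3 members were higher at this limit in each of these. When each tumor was left out in turn, the members higher at an unadjusted p under 0.05 numbered 0 to 6 (3.31% to 8.41% of all genes). Those lower numbered 0 to 1 (3.05% to 9.41% of all genes). Members higher without overlap numbered 2 to 7, with the 7 found without IgG replicate 1 (17.7% of all genes), and quantile normalization left 1 of them. Among the other p53 targets the count of higher genes ran from 1 to 9 and of lower genes from 0 to 1, with 1 lower under quantile normalization and under the replicate block. Among the regulators, higher genes numbered 0 to 1 and lower genes 1 to 2 when tumors were left out, with 1 lower under no filter, a mean FPKM of at least 2, quantile normalization and the replicate block. The cell cycle genes numbered 0 to 1, and the share of all genes that was higher ran from 3.31% to 8.41%. The causes of these changes were not tested. The replicate numbers did not pair the tumors (correlations of deviations -0.16, 0.0051 and 0.19), and with the replicate block 1725 genes in place of 1848 had an unadjusted p under 0.05. All genes with an adjusted p under 0.05 numbered 1 with voom on recovered reads, 12 without IgG replicate 1, 1 without IgG replicate 3, 1 without anti-PD-1 replicate 2 and 0 in the other alternatives. With 3 tumors a group, and 47 reads behind the lowest value of Eda2r, small differences could not be resolved.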
